A study of Mus musculus with 4 samples.

Results

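The genes described here encode the subunits of the mitochondrial respiratory chain and of ATP synthase, read in whole mouse ovary. They were chosen by name or chromosome alone: gene symbols beginning Nduf, Sdh, Uqcr, Cox4 to Cox8 or Atp5 in the patterns of subunit genes, symbols beginning mt-, and every gene on the mitochondrial chromosome. The rule found 101 of the 21958 gene rows, of which 88 are nuclear and 13 are mitochondrially encoded. Of the nuclear rows 87 carry the symbols of subunit genes and 1, Cox5b-ps, is a pseudogene. RNA was sequenced from 4 ovary libraries, 2 from females carrying an oxytocin receptor transgene (genotype tg, called ++Oxtr, replicates 3 and 4) and 2 from wild-type females (WT, replicates 5 and 6). All were in diestrus, a resting phase of the estrous cycle, and the study compared the genotypes to learn how the receptor regulates the growth of follicles. The labels give ovary as the tissue, while their extraction protocol names white adipose tissue. The sources used here do not give the promoter of the transgene, the strain, the age or whether a library holds 1 animal.

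The respiratory chain passes electrons from NADH and succinate to oxygen and uses the energy to pump protons out of the mitochondrial matrix. Complex I (the Nduf and mt-Nd genes) takes electrons from NADH, complex II (Sdh) takes them from succinate, complex III (Uqcr and mt-Cytb) hands them to cytochrome c, and complex IV (Cox and mt-Co) gives them to oxygen. Complex V, ATP synthase (Atp5 and mt-Atp), lets the protons flow back and makes ATP. Complexes I, III, IV and V are built from proteins of both genomes, and complex II is wholly nuclear. In the ovary, oocytes, granulosa cells and the steroid-making cells of the corpus luteum all depend on mitochondria, and the enzyme that opens steroid synthesis, Cyp11a1, sits on the inner mitochondrial membrane.

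The libraries held 15229810 to 16517764 counts. Levels are given as CPM, counts scaled to the TMM-adjusted size of the library. The level of the targeted receptor gene itself, Oxtr, was 109 and 161 CPM in ++Oxtr against 29.2 and 55.5 CPM in WT. The libraries differed in their levels of cell type markers. Summed markers of luteal cells were at 6060 CPM in WT replicate 6 and at 463 to 897 CPM in the other libraries. Summed markers of oviduct epithelium and motile cilia were at 47.8 CPM in ++Oxtr replicate 3 and at 992 to 3025 CPM in the others. White adipocyte markers were higher in both ++Oxtr libraries for 10 of 10 genes, against 14.5% of all genes tested. Their summed levels were 1341 and 1809 CPM against 312 and 344. Red cell markers were higher in both for 4 of 5 genes and macrophage markers for 3 of 6, with 0 lower in either list. Skeletal and heart muscle markers were higher for 3 of 7 genes and lower for 2. Granulosa cell markers were present in every library, at 3692 to 5486 CPM, and oocyte markers at 543 to 1052 CPM. In bulk RNA, fewer cells of a type and less RNA per cell cannot be told apart.

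Per gene length, 7 mitochondrially encoded genes were read at levels above those of every nuclear member. The other 6, encoded on the same circular genome, were read at a small fraction of that level. The sequence of mt-Nd4l, a membrane subunit of complex I, is printed because it shows what 5 of the 6 low genes have in common: nearly all of it occurs again, base for base, in a nuclear copy. It lies at chrMT:9877-10173 on the plus strand of GRCm38, and capitals mark the 294 bases that match the pseudogene Gm10222 on chromosome 1.
mt-Nd4l: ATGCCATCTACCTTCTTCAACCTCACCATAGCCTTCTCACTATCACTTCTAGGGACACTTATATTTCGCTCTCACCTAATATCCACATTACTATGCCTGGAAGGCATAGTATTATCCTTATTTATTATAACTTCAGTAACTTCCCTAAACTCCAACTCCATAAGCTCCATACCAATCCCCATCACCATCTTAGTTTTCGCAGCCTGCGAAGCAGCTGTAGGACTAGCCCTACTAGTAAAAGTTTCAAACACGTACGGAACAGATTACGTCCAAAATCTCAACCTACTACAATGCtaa
FPKM, counts over gene length and library size, allow levels to be compared between genes. The mean FPKM over 4 libraries was 8170 for mt-Co1, the catalytic subunit of complex IV, and 3971 for mt-Cytb, cytochrome b of complex III. Among complex I genes it was 3336 for mt-Nd1, 1956 for mt-Nd2, 1646 for mt-Nd4, 1428 for mt-Nd5 and 966 for mt-Nd6. It was 49.7 for mt-Co2 and 22.2 for mt-Co3, the other mitochondrial subunits of complex IV, 16.6 for mt-Atp6, a proton channel subunit of complex V, 4.03 for mt-Nd3, 1.38 for mt-Nd4l and 1.15 for mt-Atp8. The 2 levels did not meet in any library.

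**Figure D1:**
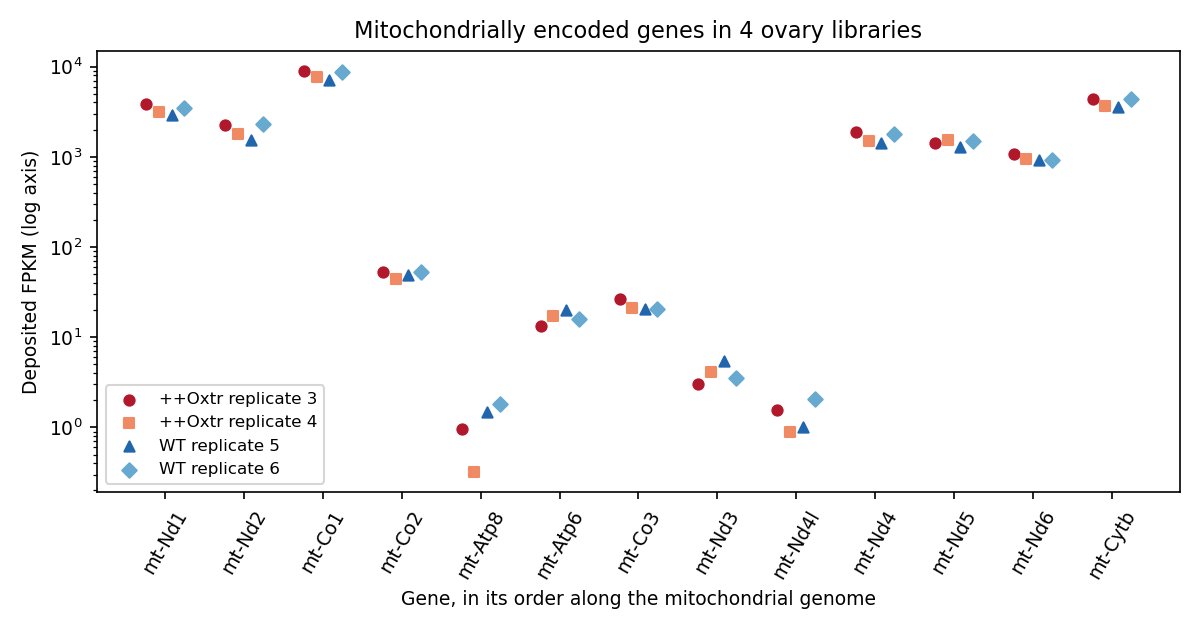
Deposited FPKM (log axis) of the 13 mitochondrially encoded genes in each of the 4 libraries. The 7 upper genes have mean levels from 966 to 8170, and the 6 lower genes from 1.15 to 49.7.

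The low level went with sequence that the gene shares with annotated nuclear copies. In the GENCODE M21 annotation of GRCm38, unprocessed pseudogenes on chromosome 1 match mt-Co2 (Gm28661, chr1:24614885-24615565), mt-Atp6 (Gm10925), mt-Co3 (Gm28437), mt-Nd3 (Gm28438) and mt-Nd4l (Gm10222) over 98.3% to 99.9% of the gene at 100% identity. Of the 50-base stretches of these 5 genes, 98.0% to 100% occur in another annotated transcript. Gm28439 covers 63.6% of mt-Nd4, and Gm29216 covers 31.3% of mt-Co1 with the single mismatch A1066T (the base of mt-Co1 first, counted from the start of the gene). No such copy of mt-Nd1, mt-Nd2, mt-Nd5, mt-Nd6 or mt-Cytb was found in that stretch of chromosome 1, the only one searched by alignment. The 50-base stretches, sought in all annotated transcripts, gave further partial matches. They made up 8.2% of mt-Nd2, in the pseudogene Gm13339, and 7.6% of mt-Nd5. In mt-Co1 51.1% were shared, of which Gm29216 held 28.7% of the gene's stretches. mt-Atp8 was low with no annotated copy found, and it overlaps the start of mt-Atp6, so reads in the overlap belong to both genes. This overlap is shorter than the 50-base stretches counted, so a copy of it would not be seen. Only annotated transcripts were searched, so an unannotated copy of mt-Atp8, for example between the copies of mt-Co2 and mt-Atp6, would be missed. The copies have no rows in the deposited table, and the sources used here do not say how reads that match 2 places were counted. Whether the shared sequence lowered these counts was not tested. The levels of the 5 genes with a full copy and of mt-Atp8 are given as deposited and are uncertain as transcript levels. Those of mt-Nd4 and mt-Co1, with 62.2% and 51.1% of their 50-base stretches shared, are uncertain as well. So are the shares, sums and ratios below that include any of these genes. mt-Nd6 is the member on the other strand, and with the strand setting not given, its reads and those of the opposite strand cannot be told apart.

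**Figure D2:**
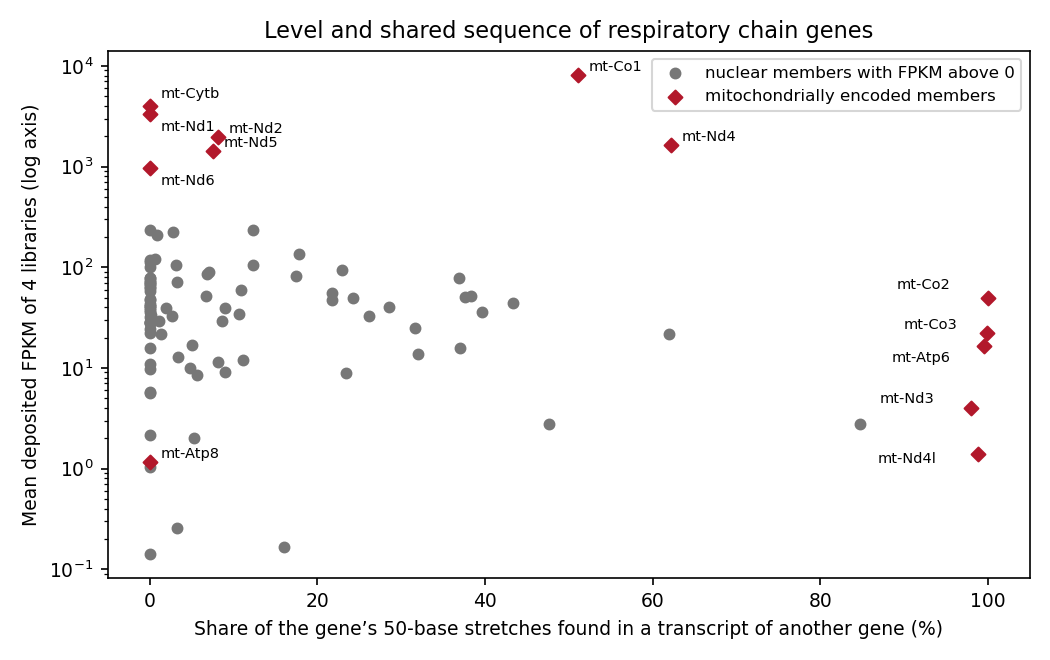
Mean deposited FPKM over 4 libraries (log axis) against the percent of a gene's 50-base stretches that occur in a transcript of another gene, for mitochondrially encoded members (named diamonds) and nuclear members (grey). The 5 genes with 98.0% to 100% shared are at 1.38 to 49.7, while mt-Co1 with 51.1% shared is at 8170 and mt-Nd4 with 62.2% is at 1646. mt-Atp8, with no 50-base stretch found in another annotated transcript, is at 1.15.

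Mitochondrial transcripts varied more between libraries of a genotype than between genotypes. The 13 genes took 3.06% and 2.64% of all counts in ++Oxtr replicates 3 and 4, and 2.43% and 3.0% in WT replicates 5 and 6. The 95% binomial interval (exact Clopper-Pearson) ran from 3.05% to 3.07% in ++Oxtr replicate 3 and from 2.43% to 2.44% in WT replicate 5 and covers counting error only. The libraries differed beyond that error, while the genotypes overlapped. mt-Co1 stood at 13668 and 12235 CPM in the ++Oxtr libraries and at 10886 and 13750 CPM in the WT libraries. Its log2 difference, ++Oxtr minus WT, was 0.07 ± 0.31 (SE), and edgeR gave it an adjusted p of 1. mt-Cytb stood at 4900 and 4299 CPM against 3955 and 5033 CPM, a log2 difference of 0.03 ± 0.25. WT replicate 5 was the lowest library in 7 of the 7 tested genes without a full copy, as it was in 19.9% of all genes tested. In these genes the median deviation from the 4-library mean was -0.20 on the log2 scale in WT replicate 5 and 0.13 in WT replicate 6, and 0.14 and -0.06 in ++Oxtr replicates 3 and 4. These genes are read from shared precursor transcripts, so they are not independent of each other.

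Within the mitochondrial genome the proportion of mt-Co1 to mt-Cytb was steady, and that of mt-Nd5 to other complex I genes was not. mt-Co1 took 45.3% to 45.5% of mitochondrial counts in every library, and its count was 2.73 to 2.85 times that of mt-Cytb. mt-Nd2 stood at 2276 and 1883 CPM in the ++Oxtr libraries and at 1572 and 2399 CPM in the WT libraries. mt-Nd5 stood at 2552 and 2849 CPM against 2295 and 2743 CPM. The count of mt-Nd5 over that of mt-Nd2 was thus 1.12 in ++Oxtr replicate 3 and 1.14 in WT replicate 6, and 1.51 in ++Oxtr replicate 4 and 1.46 in WT replicate 5, so that each genotype had a library at either value. Its ratio to mt-Nd4 ran from 0.996 to 1.35, and the count of mt-Nd6 over that of mt-Nd5 from 0.176 to 0.217. Of the other complex I genes, mt-Nd1 stood at 3602 and 3053 CPM against 2760 and 3364 CPM, and mt-Nd4 at 2563 and 2112 CPM against 1908 and 2498 CPM. Both mt-Nd6 (553 and 501 CPM against 467 and 486 CPM) and mt-Co3 (20.4 and 16.9 CPM against 15.8 and 16.4 CPM) had their ++Oxtr libraries above both WT libraries, which makes 2 of the 11 mitochondrial genes tested (18.2%) against 14.5% of all genes, a share near the background. The log2 differences of these were 0.15 ± 0.12 and 0.21 ± 0.21. Among the low genes mt-Co2 stood at 35.6 and 30.8 CPM against 32.8 and 36.8 CPM, mt-Atp6 at 9.0 and 11.9 CPM against 13.4 and 11.0 CPM, and mt-Nd3 at 1.04 and 1.47 CPM against 1.84 and 1.26 CPM. mt-Nd4l and mt-Atp8 were too low to test.

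No respiratory chain gene passed the test between genotypes. Of the 101 members 93 passed the filter on low counts, and edgeR's quasi-likelihood test called 0 of them, where it called 0% of the 15311 genes tested higher and 0% lower in ++Oxtr at an adjusted p under 0.05. DESeq2 called 0 members as well, where it called 0.366% of 18310 genes higher and 0.0164% lower. At an unadjusted p under 0.05, 1 of the 93 members stood out in edgeR (Ndufs4), against 2.57% of all genes. Both ++Oxtr libraries lay above both WT libraries in 8 of 93 members (8.6%), against 14.5% of all genes. Both lay below in 10 of 93 (10.8%), against 11.7% of all genes. The differences were small: 91 of 93 members were within 0.5 of zero on the log2 scale. For 86 of the 93 the 95% interval of the difference stayed within 1 on the log2 scale. A change beyond that size lies outside the interval for these genes. Smaller changes lie within the interval of some genes and outside that of others. With 2 libraries a group, edgeR called 0 of all genes tested, at log2 differences from -8.68 to 10.79. A lack of calls therefore does not show that a gene was unchanged.

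The nuclear and the mitochondrial genes lay close to each other. The median log2 difference was -0.04 over the 81 nuclear subunit genes tested and 0.07 over the 11 mitochondrial genes tested, with 0.00 over all genes. A log2 difference below 0 was seen in 51 of 81 nuclear and 3 of 11 mitochondrial genes, against 50.8% of all genes. Both medians turned when 1 library was left out. Without WT replicate 6 the nuclear median was 0.05 and the mitochondrial median 0.23. Without WT replicate 5 they were -0.06 and -0.09, and without ++Oxtr replicate 3 the mitochondrial median was -0.04. Mitochondrial counts were 4.01 and 3.52 times the nuclear subunit counts in the ++Oxtr libraries, and 3.25 and 3.8 times in the WT libraries, so the genotypes overlapped.

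**Figure D3:**
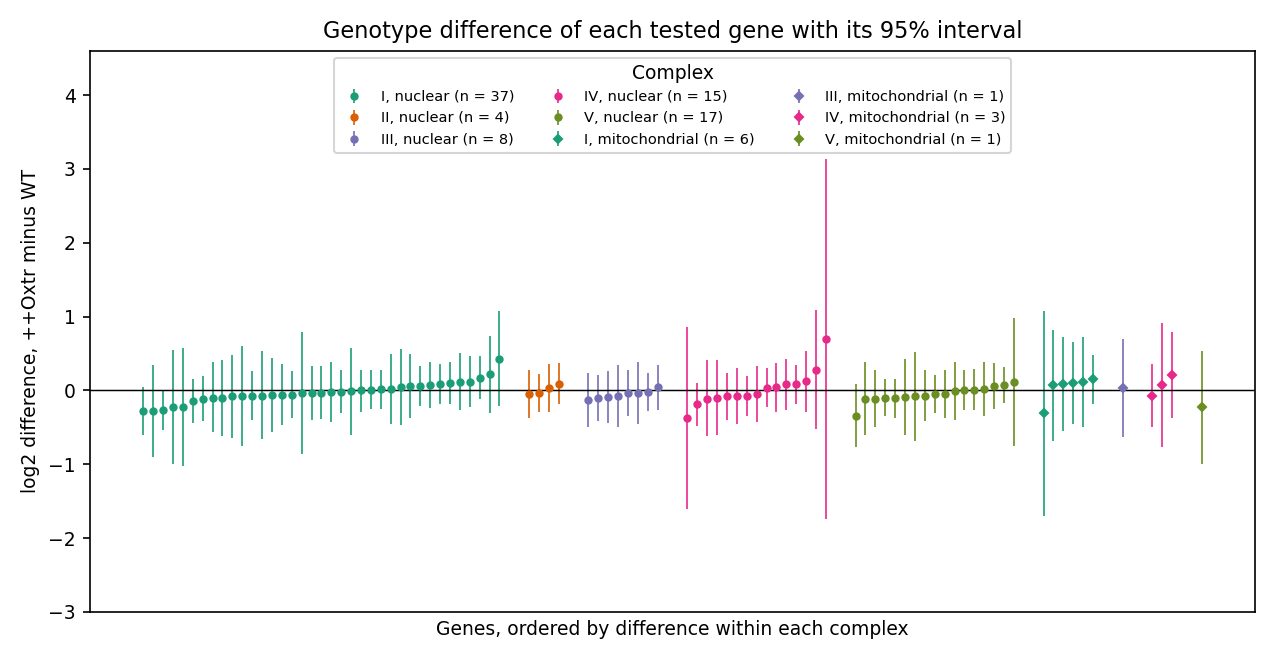
Log2 difference (++Oxtr minus WT) of each tested member in edgeR, with genes ordered by difference within each complex, circles for nuclear and diamonds for mitochondrial genes. Vertical lines are 95% intervals. Of the 93 tested members 91 lie within 0.5 of zero (the pseudogene Cox5b-ps is not drawn), and the widest interval, from -1.74 to 3.13, is that of Cox7a1.

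Nuclear subunit genes varied little between libraries. The SD of log2 CPM over the 4 libraries had a median of 0.0897 in the 50 nuclear subunit genes at a mean of at least 50 CPM, against 0.124 in the 5447 genes at that level. WT replicate 6 was the highest library in 41 of the 81 nuclear genes (50.6%), against 25.5% of all genes, and the lowest in 7 of them, against 25.6% of all genes. At a mean of at least 50 CPM it was highest in 58.0% of nuclear subunit genes and in 30.2% of all genes. The median deviation of the nuclear genes in WT replicate 6 was 0.06 on the log2 scale, while it was -0.01, -0.01 and -0.05 in ++Oxtr replicates 3 and 4 and WT replicate 5. WT replicate 6 is the library with 6060 CPM of luteal markers. The part of luteal cells in these levels was not tested.

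**Figure D4:**
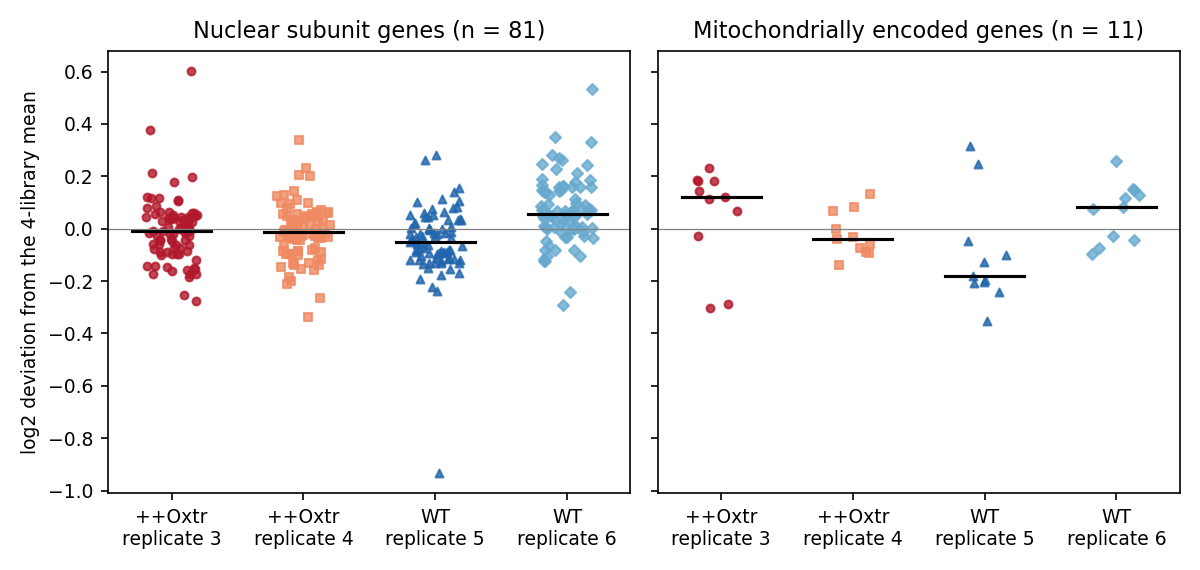
Deviation of each tested member from its mean over the 4 libraries (log2 CPM), by library, for nuclear and mitochondrially encoded genes, with black lines at the medians. Nuclear genes centre at 0.06 in WT replicate 6 and at -0.05 in WT replicate 5, and the mitochondrial genes at 0.08 and -0.18.

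Complex I, the entry of electrons from NADH, had 37 of its 38 nuclear genes tested, with a median FPKM of 28.7 and a median log2 difference of -0.03. These genes include Ndufa4l2, counted here by its name, although its relative Ndufa4 was counted with complex IV. Of its catalytic core, the nuclear genes Ndufs1, Ndufs3, Ndufs7, Ndufs8, Ndufv1 and Ndufv2 had log2 differences from -0.12 to 0.17. Ndufs4, an accessory subunit of the peripheral arm whose loss in mice causes a fatal brain disease, stood at 58.8 and 62.0 CPM in ++Oxtr and at 71.8 and 74.3 CPM in WT. The genotypes did not overlap, and the log2 difference was -0.27 ± 0.10 (SE, 95% interval -0.54 to -0.01). Its unadjusted p was 0.0469 and its adjusted p was 1 in edgeR. It was named after its values were seen.

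Ndufa12, a further accessory subunit of that arm, stood at 46.2 and 47.4 CPM in ++Oxtr and at 53.1 and 60.3 CPM in WT. Its log2 difference of -0.28 ± 0.12 was the most negative of the nuclear genes of complex I before rounding, and its unadjusted p was 0.0758 in edgeR. Of the 50-base stretches of Ndufa12, 26.2% occur in another annotated transcript, so its level is uncertain. Ndufb2, a membrane-arm subunit, had the largest positive difference, 0.43 ± 0.24, with 13.1 and 13.0 CPM in ++Oxtr against 10.3 and 9.1 CPM in WT. It also had the lowest mean FPKM of the tested nuclear genes of the complex, 2.02, over a deposited length of 5628 bases. Neither passed. Summed over the complex, the nuclear genes were at 1864 and 1878 CPM in ++Oxtr and 1817 and 1946 CPM in WT, a ratio of 0.995.

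Complex II, succinate dehydrogenase, had all 4 genes tested and a median FPKM of 57.5. Sdha, the flavoprotein that oxidises succinate, stood at 321 and 338 CPM in ++Oxtr against 303 and 341 CPM in WT, a log2 difference of 0.03 ± 0.12. Sdhb, the iron-sulfur subunit, stood at 82.3 and 81.8 CPM against 78.3 and 92.0 CPM. Sdhc, a membrane anchor, stood at 109 and 118 CPM against 110 and 104 CPM. In each of these genes the genotypes overlapped. Complex III had all 8 nuclear genes tested, with a median FPKM of 54.1. Uqcr10, a small membrane subunit, was highest at a mean FPKM of 101, with 58.3 and 55.8 CPM against 55.4 and 66.0 CPM. Uqcrc1, a core protein that faces the matrix, stood at 120 and 117 CPM against 107 and 123 CPM. Both ++Oxtr libraries lay below both WT libraries in 1 of the 8 genes (12.5%), near the 11.7% of all genes. This was Uqcr11, at 35.2 and 36.8 CPM against 41.5 and 37.3 CPM (log2 difference -0.13 ± 0.14).

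Complex V had 17 of 18 nuclear rows tested, with a median FPKM of 43.2 and a median log2 difference of -0.05. Both ++Oxtr libraries lay below both WT libraries in 4 of the 17 (23.5%), against 11.7% of all genes. Both lay above in 1 of the 17 (5.88%), against 14.5% of all genes. Atp5a1, the alpha subunit of the catalytic head, was highest at a mean FPKM of 223, with 685 and 723 CPM in ++Oxtr and 663 and 725 CPM in WT. The count of Atp5b, the beta subunit that carries the catalytic sites, was 1.26 to 1.31 times that of Atp5a1 in every library. Atp5md, a small membrane subunit, had the most negative difference, with 28.1 and 27.4 CPM in ++Oxtr against 32.4 and 38.0 CPM in WT. The genotypes did not overlap, and the log2 difference was -0.34 ± 0.16 (edgeR, unadjusted p = 0.0941, adjusted p = 1). Atp5o, the stalk subunit at the top of the head, stood at 6.35 and 5.08 CPM against 5.23 and 5.34 CPM. Atp5l, a membrane subunit, stood at 17.9 and 16.8 CPM against 18.3 and 18.5 CPM, and its mean FPKM of 2.77 was the lowest of the complex over a deposited length of 6443 bases. Of the 50-base stretches of Atp5l, 84.8% occur in another annotated transcript, and 47.6% of those of Atp5o do, so their levels are uncertain. A further row named Atp5o was at 0 counts in every library.

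Complex IV had 15 of 19 nuclear genes tested, Ndufa4 included, which is known as a subunit of this complex despite its name. The median FPKM was 72.2, the highest of the nuclear groups, and the median log2 difference was -0.05. Many of its subunits come as alternatives from separate genes, a widespread form and forms typical of muscle, lung or testis, and the ovary libraries held mainly the widespread forms. Cox8a had the highest level of any nuclear member, a mean FPKM of 235, and stood at 136 and 159 CPM in ++Oxtr and 142 and 145 CPM in WT. Its muscle form Cox8b had 13 and 5 counts in the ++Oxtr libraries and 1 and 4 counts in the WT libraries, and its testis form Cox8c had 0 counts in all, which allows up to 0.178 to 0.2 CPM. Cox6a1 had a mean FPKM of 232, with 167 and 147 CPM against 143 and 195 CPM, and its muscle form Cox6a2 had 0 to 6 counts. Cox7b, at 142 and 144 CPM against 157 and 143 CPM, faced 0 to 4 counts of Cox7b2.

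Cox4i1, the widespread form of the subunit that regulates the enzyme, stood at 157 and 181 CPM in ++Oxtr and 168 and 151 CPM in WT. Cox4i2, a form known from lung and from low oxygen, stood at 4.6 and 3.41 CPM against 3.69 and 6.65 CPM, and its log2 difference of -0.37 ± 0.45 was the most negative among the complex IV genes. Per length, Cox4i1 exceeded Cox4i2 by 11.6 to 27.0 times, and the lowest of these ratios was in WT replicate 6. Cox7a1, the heart and muscle form that brown fat also uses, had 28 and 15 counts in ++Oxtr and 5 and 23 counts in WT. Its log2 difference of 0.69 ± 0.90 was the largest of any tested member and had a 95% interval from -1.74 to 3.13, and the genotypes overlapped. Cox7a2 stood at 60.4 and 59.6 CPM against 56.9 and 60.3 CPM, and Cox7a2l, which joins complexes III and IV in supercomplexes, at 205 and 214 CPM against 215 and 169 CPM. Cox6b1 stood at 72.1 and 83.2 CPM against 79.9 and 84.2 CPM, and its testis form Cox6b2 at 13.9 and 9.62 CPM against 9.7 and 9.67 CPM.

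The markers of muscle and of brown fat are given beside these forms. Summed markers of skeletal and heart muscle were at 5.96 to 25.2 CPM, and those of brown adipocytes at 37.6 to 65.3 CPM. Of the 7 brown adipocyte markers, Zic1 was at 0 in every library, and Ucp1 (the uncoupling protein), Elovl3 and Otop1 had 0 to 2 counts. Dio2, which activates thyroid hormone, stood at 27.4 to 48.8 CPM, Ppargc1a at 3.58 to 6.41 CPM, and Cidea at 5.89 to 9.95 CPM in 3 libraries with 1 count in ++Oxtr replicate 3. White adipocyte markers were at 1341 and 1809 CPM in the ++Oxtr libraries, and their part in the counts of Cox8b and Cox7a1 was not tested.

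Ndufa4 stood at 102 and 103 CPM in ++Oxtr and at 93.7 and 99.9 CPM in WT, a log2 difference of 0.09 ± 0.10, while its relative Ndufa4l2, known from hypoxia, stood at 5.51 and 6.68 CPM against 6.3 and 6.15 CPM. Atp5g1, Atp5g2 and Atp5g3 encode the same mature c subunit of the ATP synthase ring, and Atp5g3 led per length, with a mean FPKM of 118 against 51.5 for Atp5g2 and 12.0 for Atp5g1. Atp5g3 stood at 263 and 234 CPM in ++Oxtr and at 228 and 308 CPM in WT. Atp5g2 stood at 85.6 and 81.3 CPM against 89.5 and 88.8 CPM, without overlap, with a log2 difference of -0.10 ± 0.10. Of the 50-base stretches of Atp5g2, 38.3% occur in another annotated transcript, so its level is uncertain. Atp5g1 stood at 54.1 and 61.5 CPM against 58.0 and 61.8 CPM. The order of these genes was the same in every library.

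**Figure D5:**
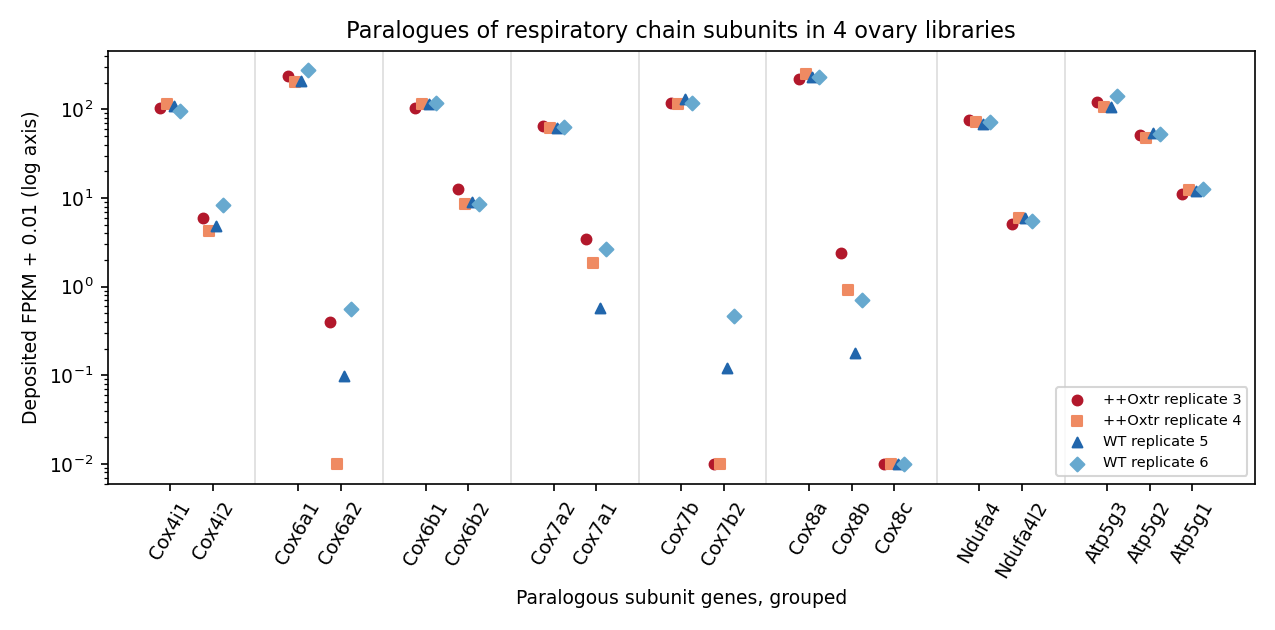
Deposited FPKM (log axis, with 0.01 added so that zeros can be drawn) of subunits that come as alternative forms, in each library. The widespread forms Cox8a and Cox6a1 have mean levels of 235 and 232, and Cox8b and Cox6a2 have mean levels of 1.03 and 0.256.

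Summed over subunits, the nuclear part of each complex was close to equal in the genotypes, and the mitochondrial part varied more. The ratio of ++Oxtr to WT in summed CPM of nuclear genes was 0.995 for complex I, 1.01 for complex II, 0.972 for complex III, 0.992 for complex IV and 0.984 for complex V. For mitochondrial genes it was 1.07 for complex I, 1.02 for complex III, 1.05 for complex IV and 0.855 for complex V. In complex V mt-Atp6, a gene with a full nuclear copy, is the only one tested, and in complex III mt-Cytb is. The complex IV sum is almost wholly mt-Co1, at a mean of 12952 of 13004 CPM in ++Oxtr and 12318 of 12369 CPM in WT. With a library left out, the log2 ratio of the mitochondrial sum ran from -0.07 to 0.29 for complex I, from -0.13 to 0.22 for complex III, from -0.09 to 0.25 for complex IV and from -0.44 to -0.04 for complex V. The nuclear sum of complex V was 3006 and 3074 CPM in ++Oxtr and 2924 and 3252 CPM in WT, so that the WT libraries lay on either side of both ++Oxtr libraries. The same held for the mitochondrial sums of complexes III and IV. In the mitochondrial sum of complex I, WT replicate 5 was lowest at 9003 CPM and ++Oxtr replicate 3 highest at 11547 CPM.

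Genes that build and serve the chain did not pass either. In each of 11 lists of such genes, edgeR and DESeq2 called 0 members. The largest list, 77 tested proteins of the mitochondrial ribosome, which translates the mitochondrial messages, had a median log2 difference of -0.05 with 50 members below 0. Both ++Oxtr libraries lay below both WT libraries in 22 of its 77 members (28.6%), against 11.7% of all genes. They lay above in 6 (7.79%), against 14.5% of all genes. This was not particular to the ribosome. The share below was 33.3% (6 of 18) in mitochondrial DNA maintenance and expression and 21.1% (4 of 19) in complex IV assembly. It was 6.67% in complex I assembly and 7.69% in the TCA cycle. The median of the ribosome list ran from -0.09 to -0.02 with a library left out. Other lists turned sign: complex IV assembly factors ran from -0.08 to 0.03, mitochondrial DNA maintenance and expression from -0.16 to 0.04, the TCA cycle from -0.09 to 0.07 and coenzyme Q synthesis from -0.05 to 0.10. The 15 assembly factors of complex I had a median of -0.04, the 19 of complex IV also -0.04, and the 12 genes of coenzyme Q synthesis 0.01. The 18 genes of mitochondrial DNA maintenance and expression had a median of -0.07, and the 13 of the TCA cycle 0.00. Ppargc1a, a coactivator that drives mitochondrial biogenesis, stood at 3.69 and 6.41 CPM in ++Oxtr and 4.1 and 3.58 CPM in WT. Ucp3, an uncoupling protein relative found in muscle and fat, was the only list member with an unadjusted p under 0.05 in edgeR. Among all genes tested 2.57% had such a p, so this count is no excess. Ucp3 stood at 3.04 and 1.8 CPM in ++Oxtr and at 0.476 and 0.816 CPM in WT, a log2 difference of 1.90 ± 0.59 with an adjusted p of 1 in edgeR.

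Some promoters of the nuclear genes held motifs that the choice of genes did not use. RefSeq promoters on GRCm38.p6, from 250 bases before to 50 bases after the start, were found for 70 of the 87 nuclear subunit genes. On either strand, the NRF1 motif GCGCATGCG was in 8 of them (11.4%), against 1.95% of all 27025 genes with a RefSeq promoter. These outnumber the 21958 gene rows and were not limited to genes expressed in the ovary, as most members are. The ETS motif ACCGGAAG, bound by the factor GABP, was in 7, against 2.6% of all. The YY1 motif AAGATGGCG was in 7, against 1.64% of all. Any of the 3 was in 22 (31.4%), against 5.89% of all. These factors are known regulators of respiratory genes. A match is a run of letters and was not measured as binding here. For each motif, the promoter of the gene with the smallest unadjusted p among the matches is printed with the motif in capitals, as examples of the 3 kinds of promoter. Each is read 5′ to 3′ on the minus strand, the strand of its gene. They lie at chr15:102670998-102671297 (Atp5g2, NRF1, where matches on both strands overlap), chr19:47090598-47090897 (Atp5md, ETS, on the reverse strand of the printed text) and chr13:114388045-114388344 (Ndufs4, YY1). These are positions on GRCm38.p6. The deposited table gives these nuclear genes other positions, so it does not use the coordinates of that build although the processing notes name mm10, and the promoters were matched by gene and not by the table's positions.
Atp5g2: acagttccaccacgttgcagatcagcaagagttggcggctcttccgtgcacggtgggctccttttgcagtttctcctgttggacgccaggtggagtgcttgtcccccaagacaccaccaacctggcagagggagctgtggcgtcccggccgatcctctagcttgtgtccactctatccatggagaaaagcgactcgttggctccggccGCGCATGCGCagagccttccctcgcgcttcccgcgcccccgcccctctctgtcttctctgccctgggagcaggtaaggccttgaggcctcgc
Atp5md: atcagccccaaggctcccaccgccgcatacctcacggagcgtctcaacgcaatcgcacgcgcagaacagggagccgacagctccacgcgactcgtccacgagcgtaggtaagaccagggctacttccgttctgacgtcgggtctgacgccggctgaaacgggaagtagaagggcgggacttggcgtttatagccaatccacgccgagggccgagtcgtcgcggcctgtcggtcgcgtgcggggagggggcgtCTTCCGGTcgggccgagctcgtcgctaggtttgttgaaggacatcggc
Ndufs4: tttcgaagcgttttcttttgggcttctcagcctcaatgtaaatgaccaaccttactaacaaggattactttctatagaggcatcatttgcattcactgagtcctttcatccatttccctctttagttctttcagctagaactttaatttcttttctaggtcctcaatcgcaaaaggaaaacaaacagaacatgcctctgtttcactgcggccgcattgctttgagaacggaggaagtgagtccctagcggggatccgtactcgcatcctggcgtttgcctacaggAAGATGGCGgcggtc
Their genes stood lower in both ++Oxtr libraries than in both WT libraries, and the 3 were picked by p, so this order is no result about the motifs.

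Some members were too low to test or uncertain in their sequence. The 8 members not tested were Cox8b, Cox6a2, Cox8c, Cox7b2, Ndufb11b, mt-Atp8, mt-Nd4l and the further Atp5o row. Cox5b-ps, the pseudogene, stood at 7.45 and 6.28 CPM in ++Oxtr and at 9.7 and 10.1 CPM in WT, a log2 difference of -0.53 ± 0.27 with an adjusted p of 1 in edgeR, and 61.9% of its 50-base stretches occur in other transcripts. Its parent Cox5b, a nuclear subunit of complex IV, stood at 90.4 and 79.9 CPM against 81.3 and 97.1 CPM. Of the 81 nuclear genes tested, 17 share more than 20% of their 50-base stretches with other transcripts. Their median log2 difference was -0.07, and that of the other 64 was -0.03. Both ++Oxtr libraries lay below both WT libraries in 4 of the 17 (23.5%) and 5 of the 64 (7.81%), against 11.7% of all genes. Both lay above in 0 of the 17 and 6 of the 64 (9.38%), against 14.5% of all genes. The part of shared sequence in this was not tested.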

How the data were processed

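RNA of 4 mouse ovary libraries was measured by sequencing. Per the file headers, the deposited table gives for each gene a read count, not normalised, and an FPKM value, which the authors computed and which equals the count over the gene's deposited length and the library total. The submitters' processing notes name mm10. These sources do not give the aligner, the counting program or its strand setting. Groups and replicate numbers come from the sample titles. The labels do not say whether replicates are separate animals, so p-values measure only a spread between libraries that may be technical.

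Counts were tested with edgeR 4.0.16 (quasi-likelihood test, TMM scaling, filterByExpr with a minimum count of 10, R 4.3.3) over 15311 genes with Benjamini-Hochberg adjustment and a threshold of 0.05. The fit had 2 residual degrees of freedom and a common dispersion of 0.104. The 51 rows without a symbol stayed in under their identifiers. CPM are TMM-scaled, and differences are given as log2 of ++Oxtr over WT with the SE of the fit. The script was checked on simulated data. Alternatives were DESeq2 1.42.0, limma 3.58.1 (voom, and trend on log2 FPKM with a pseudocount of 1 or 0.1), other scalings and filters, and each library left out. Shared sequence was counted as 50-base stretches of GENCODE M21 transcripts.

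The members and lists were chosen with earlier results of these data known. Genes named in full were all mitochondrial members, the nuclear member of each complex with the highest level, the lowest level and the largest difference in each direction, and the alternative tissue forms. A gene that this rule named is not reported here.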

Additional observations from a re-analysis of the deposited data

How the results depend on the processing

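No paired analysis was possible because the genotypes share no replicate number. Members called stayed at 0 in edgeR, DESeq2, limma-voom, limma on FPKM, every other scaling and filter, and with each library left out. Over all genes DESeq2 called 70. Leaving out 1 library, edgeR called 0 to 65 genes, the 65 without ++Oxtr replicate 4, while DESeq2 called 55 without ++Oxtr replicate 3, 494 without ++Oxtr replicate 4, 161 without WT replicate 5 and 44 without WT replicate 6. The lone library of a genotype was then assumed to vary like the other group. The median log2 difference ran from -0.06 to 0.05 over the nuclear genes and from -0.09 to 0.23 over the mitochondrial genes. The log2 ratio of summed levels ran from -0.06 to 0.04 for nuclear complex I, from -0.12 to 0.04 for complex III and from -0.10 to 0.06 for complex V, while the wider mitochondrial ranges stand in the report. In each of these nuclear sums the highest value came without WT replicate 6, and the cause was not tested. With a library left out, members that lay above WT numbered 12 to 40 of 93 and those below 19 to 49, against 27.2% to 35.2% of all genes in either direction. Without WT replicate 6, 40 lay above (28.6% of all genes) and 19 below. Without WT replicate 5, 12 lay above (31.4% of all genes) and 49 below (30.3%). With total counts alone 16 members lay below, against 13.4% of all genes. Of 39 named members tested, 13 kept their sign in all 15 alternatives and 26 changed sign in at least 1. DESeq2 with a library left out, the counts of non-overlap under other settings and the medians without shared-sequence genes were chosen after seeing the data.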
